A study of Mus musculus with 9 samples.

Results

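The genes of the mitochondrial ribosomal proteins were followed in RNA of the mouse retinal pigment epithelium (RPE). They were chosen by symbol alone, as every gene named Mrpl or Mrps followed by a number, without pseudogenes, with at least 100 counts summed over the 9 libraries. This gave 78 of the 40202 genes of the deposited table, 49 with an Mrpl symbol and 29 with an Mrps symbol. No gene with such a symbol lay under the minimum; the smallest total was 1228 counts, for Mrps36, and the largest 99209, for Mrps6. The study holds 3 groups of 3 libraries, all from wild-type animals. Young controls were 9 months old, old controls were 24 months old, and treated animals were 24 months old after 6 months of vutiglabridin, a small molecule derived from glabridin. Total RNA depleted of rRNA was sequenced in bulk. The labels do not say that the libraries came from separate animals, so each p-value speaks to the scatter among these 9 samples, which may be technical. In bulk tissue, fewer cells of a type and less RNA per cell cannot be told apart.

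Mitochondria keep a ribosome of their own, which translates the few mRNAs of mitochondrial DNA into subunits of the respiratory chain and ATP synthase. Its rRNAs are encoded in the mitochondrial genome, whereas its proteins are encoded in the nucleus, made in the cytosol and imported. The small subunit binds and decodes the mRNA, and the large subunit joins the amino acids. The RPE, a layer of pigmented cells that recycles the visual chromophore and digests shed photoreceptor outer segments, relies heavily on oxidative phosphorylation. By role, 31 members belonged to the large subunit with a bacterial homologue, 20 to the large subunit without one, 17 to the small subunit with a homologue and 9 to the small subunit without one. Mrps18a and Mrps30 are large subunit proteins despite their symbols. Mrps36, the remaining member, is a component of the 2-oxoglutarate dehydrogenase complex and not a ribosomal subunit.

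Of the 7 members called lower in treated than in young RPE, 4 overlapped no other gene, and part of the sequence before their starts is shown. Sequences are RefSeq's for GRCm38.p6, 5′ to 3′ on the gene's strand, and each is the longest stretch of the 250 bases before the start that lies in no GENCODE exon. Capitals mark CCAAT (the NF-Y box) and GGGCGG (the GC box of SP factors) on either strand. The Mrpl36 stretch is chr13:73330759-73330859 on the plus strand, and the Mrpl58 stretch is chr11:115403502-115403751 on the plus strand. The Mrpl28 stretch is chr17:26123255-26123499 on the plus strand, and the Mrps33 stretch is chr6:39810989-39811186 on the minus strand.
Mrpl36: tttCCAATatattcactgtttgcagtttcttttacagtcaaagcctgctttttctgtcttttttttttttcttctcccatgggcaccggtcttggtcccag
Mrpl58: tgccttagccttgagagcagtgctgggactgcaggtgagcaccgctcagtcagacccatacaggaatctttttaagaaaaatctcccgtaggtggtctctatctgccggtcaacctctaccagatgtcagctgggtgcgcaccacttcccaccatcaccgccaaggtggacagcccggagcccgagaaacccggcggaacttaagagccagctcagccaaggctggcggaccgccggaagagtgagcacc
Mrpl28: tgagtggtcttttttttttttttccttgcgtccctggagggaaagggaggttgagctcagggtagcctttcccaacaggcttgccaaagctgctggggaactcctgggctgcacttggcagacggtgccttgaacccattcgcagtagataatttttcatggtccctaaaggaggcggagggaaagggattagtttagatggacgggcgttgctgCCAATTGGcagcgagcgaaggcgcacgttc
Mrps33: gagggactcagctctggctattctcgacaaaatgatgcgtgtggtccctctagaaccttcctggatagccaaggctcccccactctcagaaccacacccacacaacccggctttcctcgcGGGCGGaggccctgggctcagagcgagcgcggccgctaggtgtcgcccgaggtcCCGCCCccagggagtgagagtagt

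The Mrpl36 and Mrpl28 stretches hold a CCAAT box, which in Mrpl28 overlaps its own reverse complement, the Mrps33 stretch holds GGGCGG on both strands, and the Mrpl58 stretch holds none of the motifs searched. Windows of 300 bases, from 250 before to 50 after the start, were found for 69 of the 78 members and for 27025 genes in all, and were searched on both strands. GCATGCGC, the core of the NRF1 site, was in 11.6% of member windows and 2.80% of all windows. CCGGAAGT, an ETS site of the kind bound by GABP, was in 15.9% and 4%. AAGATGGC, a YY1 site, was in 17.4% and 2.88%. GGGCGG was in 49.3% and 35.9%, and CCAAT in 39.1% and 37.9%. Among the 7 lower members the NRF1 letters were in 0, the ETS letters in 1 (Mrpl18) and the YY1 letters in 3 (Mrpl36, Mrpl49 and Mrps7). The YY1 letters of Mrpl36 lie at -30 to -23, outside its printed stretch, which runs from -250 to -150. A match is a run of letters and not a measured binding site.

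Total counts ran from 44196290 to 56797891 per library, and the smallest count of a member in a library was 112. Members took 0.114% to 0.150% of the counts. All 78 were among the 25273 genes that passed the filter on low counts and were tested. Markers of the RPE were present at 17484 to 19654 summed CPM (counts scaled to library size) in young, 13565 to 16201 in old and 10055 to 15954 in treated libraries. Rod photoreceptor markers summed to 184 to 380, 275 to 375 and 254 to 794 CPM, and were highest in treated libraries 2 and 3, where the RPE markers were lowest. No RPE or rod marker was at 0 in any library. Stratified epithelium markers summed to 377 CPM in treated library 2 and 97.9 in treated library 3, against 46.6 to 69.3 in the other 7 libraries. Red blood cell markers summed to 5136 CPM in treated library 2 and 645 in treated library 3, against 91.1 to 339 in the other 7. Skeletal muscle markers summed to 270 to 828 CPM in young and 686 to 1551 in old libraries. In treated libraries 1, 2 and 3 the muscle markers summed to 1741, 2379 and 570 CPM, and their part in the member values was not tested. Young library 1 was low in the mitochondrial rRNA mt-Rnr2, at 1532 CPM against 4321 to 5768 CPM in the other 8 libraries. It also had the fewest genes with a count, 28873 against 30906 to 32523 in the other 8.

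Levels per length were compared with the deposited FPKM, whose length is the whole gene span with its introns. On that scale Mrpl36 stood highest, at a mean of 12.9 FPKM over the 9 libraries, ahead of Mrpl34 at 9.94 and Mrpl43 at 7.95. The lowest were Mrps36 at 0.316, Mrps27 at 0.338 and Mrpl42 at 0.348, and the median member stood at 1.51 FPKM. The within-group coefficient of variation of CPM had a median of 11.1%, from 2.67% for Mrpl1 to 24.3% for Mrps6. The 3 highest are short genes, of 828 bp (Mrpl34) to 1429 bp (Mrpl43), while the 3 lowest span 8720 bp (Mrps36) to 70796 bp (Mrps27), and introns count toward the length on this scale.

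The median level of the members shifted from library to library. The median deviation of members from their own mean over the libraries, on the log2 scale, was 0.22, 0.06 and -0.01 in young libraries 1, 2 and 3. It was 0.02, 0.09 and -0.02 in the old controls, and -0.05, -0.11 and -0.22 in the treated libraries. Young library 1 was the highest and treated library 3 the lowest, and the other 7 lay between -0.11 and 0.09. The same summary for the 41 Nduf genes, subunits of complex I and their assembly partners, was 0.32 in young library 1 and -0.27 in treated library 3. For the 80 cytosolic ribosomal protein genes it was 0.24 in young library 1, their highest, and -0.15 in treated library 3. Their lowest value, -0.19, was in young library 3.

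**Figure D1:**
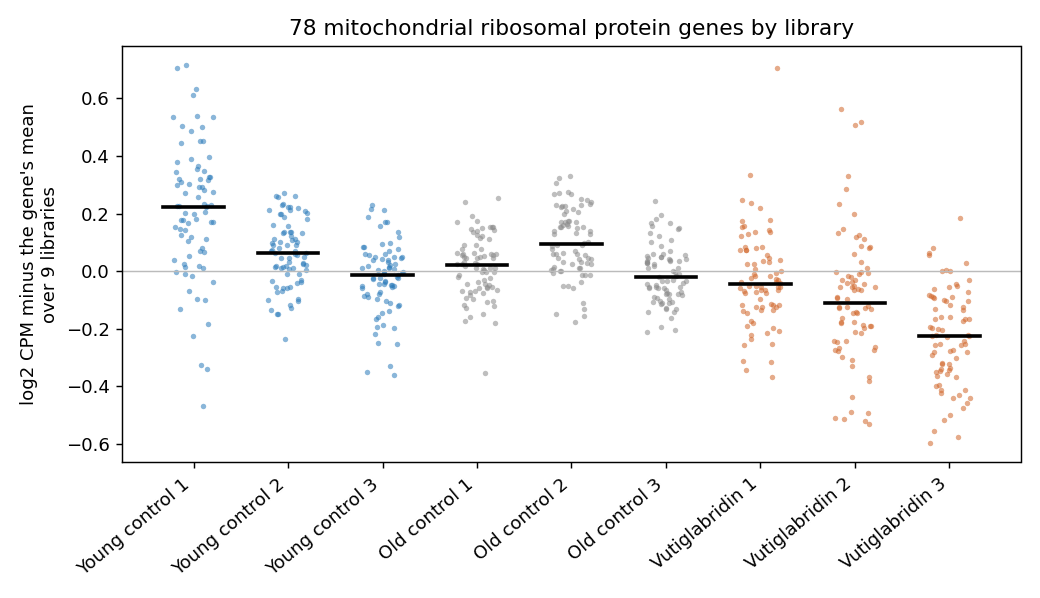
Each point is 1 of the 78 members in 1 library, as log2 deviation of its CPM from that gene's mean over 9 libraries, with the library's median drawn as a line; libraries are ordered and coloured by group. The medians run from 0.22 in young library 1 to -0.22 in treated library 3, and the clouds of points of all libraries overlap.

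Old and young RPE were compared to ask whether these genes change with age alone. No member was called at an adjusted p under 0.05 (edgeR quasi-likelihood test, Benjamini-Hochberg over all 25273 genes), where 1.68% of all genes were (0.202% lower and 1.48% higher). No member had an unadjusted p under 0.05, where 4.15% of all genes were lower and 7.5% higher at that level. DESeq2 and limma-voom also called 0. The median member log2 fold change was -0.04, beside -0.01 over all genes, and 57 of 78 lay below 0. Without young library 1 the median was 0.02 and 33 lay below 0.

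The member with the smallest p was Mrps7, a protein of the head of the small subunit. Its level was 32.5, 30.6 and 29.7 CPM in young and 22.9, 26.3 and 26.2 CPM in old libraries. The 2 groups did not overlap, and the log2 difference was -0.30 ± 0.14 (SE, n = 3 per group), with an adjusted p of 0.456. Mrpl47, a large subunit protein near the tunnel exit, had the most positive difference, 0.20 ± 0.17, with an adjusted p of 0.755. The groups did not overlap for 7 members lower and 3 higher in old RPE, shares of 8.97% and 3.85%, where 12.1% and 13.2% of all genes did so.

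Treated and old RPE are of the same age, and their comparison addresses the drug. No member was called at an adjusted p under 0.05, where 4.34% of all genes were (1.97% lower and 2.37% higher). Below 0 lay 61 of 78 members, and the median was -0.16, beside -0.01 over all genes. At an unadjusted p under 0.05, 14 members were lower (17.9%, with 12.2% of all genes) and 2 were higher, Mrps28 and Mrpl48 (2.56%, with 12.5% of all genes). The groups did not overlap for 26 members lower in treated RPE (33.3%, with 17.5% of all genes) and for 2 higher (2.56%, with 14.7%). DESeq2 called 3 members, all lower, and limma-voom 1 lower and 1 higher.

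The smallest p belonged to Mrps33, a small subunit protein without a bacterial homologue. It stood at 8.96, 9.36 and 8.28 CPM in old and 6.40, 6.71 and 5.61 CPM in treated libraries. All 3 treated values lay under the lowest old value, and the log2 difference was -0.51 ± 0.13, with an adjusted p of 0.0561. Next came Mrpl36, the homologue of bacterial L36 in the large subunit, at 16.3, 16.5 and 13.7 CPM in old and 12.2, 10.1 and 10.8 CPM in treated RPE. These groups did not overlap either, with a log2 difference of -0.49 ± 0.13 and an adjusted p of 0.0608. Mrpl49, a large subunit protein without a bacterial homologue, differed by -0.45 ± 0.14 with an adjusted p of 0.086. These 3 members were the ones DESeq2 called.

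Treated animals differed from young controls in both age and drug, and all member calls were made here. In treated RPE 7 members fell and 0 rose: Mrpl36, Mrpl58, Mrpl49, Mrps33, Mrpl28, Mrps7 and Mrpl18. That is 8.97% of members lower, where 7.69% of all genes were called lower (9.01% higher, and 16.7% in either direction), so the share is near the background. The median member log2 fold change was -0.20, beside -0.01 over all genes, and 67 of 78 lay below 0. At an unadjusted p under 0.05, 25 members were lower (32.1%, with 16.7% of all genes) and 1, Mrps28, was higher (1.28%, with 17.5%). The groups did not overlap for 25 members lower (32.1%, with 17.3% of all genes) and for 2 higher (2.56%, with 15.9%). This comparison shares the young libraries with the first and the treated libraries with the second, so the 3 sets of values are not independent.

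Mrpl36 (chromosome 13, 73479128 to 73480297, plus strand, in the deposited coordinates) had the smallest p. Its level was 21.3, 17.7 and 16.7 CPM in young, 16.3, 16.5 and 13.7 in old, and 12.2, 10.1 and 10.8 in treated libraries. The treated libraries lay below all others, and no young value reached down to an old one. The treated mean was 11.04 ± 1.08 CPM (SD, n = 3) against 18.5 ± 2.40 in young RPE, a log2 difference of -0.75 ± 0.13 with an adjusted p of 0.00678. This call held without each of the 9 libraries in turn, with adjusted p-values up to 0.0248.

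Mrpl58 (chromosome 11, 115294550 to 115303500, plus strand) is the peptidyl-tRNA hydrolase ICT1, which releases stalled chains and is built into the central protuberance of the large subunit. It stood at 37.1, 36.0 and 34.9 CPM in young, 31.2, 33.2 and 29.7 in old, and 30.001, 21.1 and 22.3 in treated libraries. Young values lay above all others, while treated library 1 fell among the old controls. The log2 difference from young was -0.55 ± 0.13, with an adjusted p of 0.0186, and the call was lost without young library 1, young library 2 or treated library 2, with adjusted p-values of 0.0572, 0.063 and 0.0517.

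Mrpl49 (chromosome 19, 6103660 to 6107785, minus strand) stood at 29.4, 21.6 and 23.3 CPM in young, 22.6, 24.5 and 19.9 in old, and 18.3, 14.5 and 16.2 in treated libraries. Treated values were the lowest, and young and old overlapped. The log2 difference from young was -0.60 ± 0.14, with an adjusted p of 0.0199, which became 0.0598 without young library 1 and 0.0569 without treated library 2. Its span shares 89 bp with Syvn1.

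Mrps33 (chromosome 6, 39778738 to 39787870, minus strand) stood at 10.2, 9.13 and 8.08 CPM in young libraries, with the old and treated values given above. Again all treated values lay below all others, and young and old overlapped. The log2 difference from young was -0.55 ± 0.13, with an adjusted p of 0.0216, and the call was lost without young library 1 (0.0639) or young library 2 (0.0686).

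Mrpl28 (chromosome 17, 26342477 to 26345587, plus strand), a large subunit protein with a bacterial homologue, stood at 20.4, 16.7 and 13.9 CPM in young, 16.2, 16.2 and 13.3 in old, and 11.6, 11.6 and 11.8 in treated libraries. The treated values were nearly equal and below all others. The log2 difference from young was -0.54 ± 0.14, with an adjusted p of 0.0308. The call held in 3 of 9 fits without 1 library; without young library 1 the adjusted p was 0.0872.

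Mrps7 (chromosome 11, 115494966 to 115498862, plus strand) stood at 25.3, 23.5 and 16.9 CPM in treated libraries, which overlapped the old ones and lay below the young ones. The log2 difference from young was -0.50 ± 0.14, with an adjusted p of 0.0373, and it held in 2 of 9 fits without 1 library. Its span shares 536 bp with Gga3 and 119 bp with Mif4gd, which itself fell by 0.71 on the log2 scale, with an adjusted p of 0.0170. Mrpl18 (chromosome 17, 13130232 to 13136674, minus strand), which binds 5S rRNA in bacteria, stood at 19.8, 17.7 and 15.1 CPM in young, 15.2, 17.2 and 14.2 in old, and 14.5, 12.7 and 11.99 in treated libraries. Young and treated values did not overlap, the log2 difference was -0.43 ± 0.13 with an adjusted p of 0.0482, and it held in 2 of 9 fits without 1 library. It shares 22.6% of its span with Tcp1. Reads in shared stretches appear to count for both genes whatever their strand, so each of these 3 genes cannot be fully told apart from its neighbour.

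**Figure D2:**
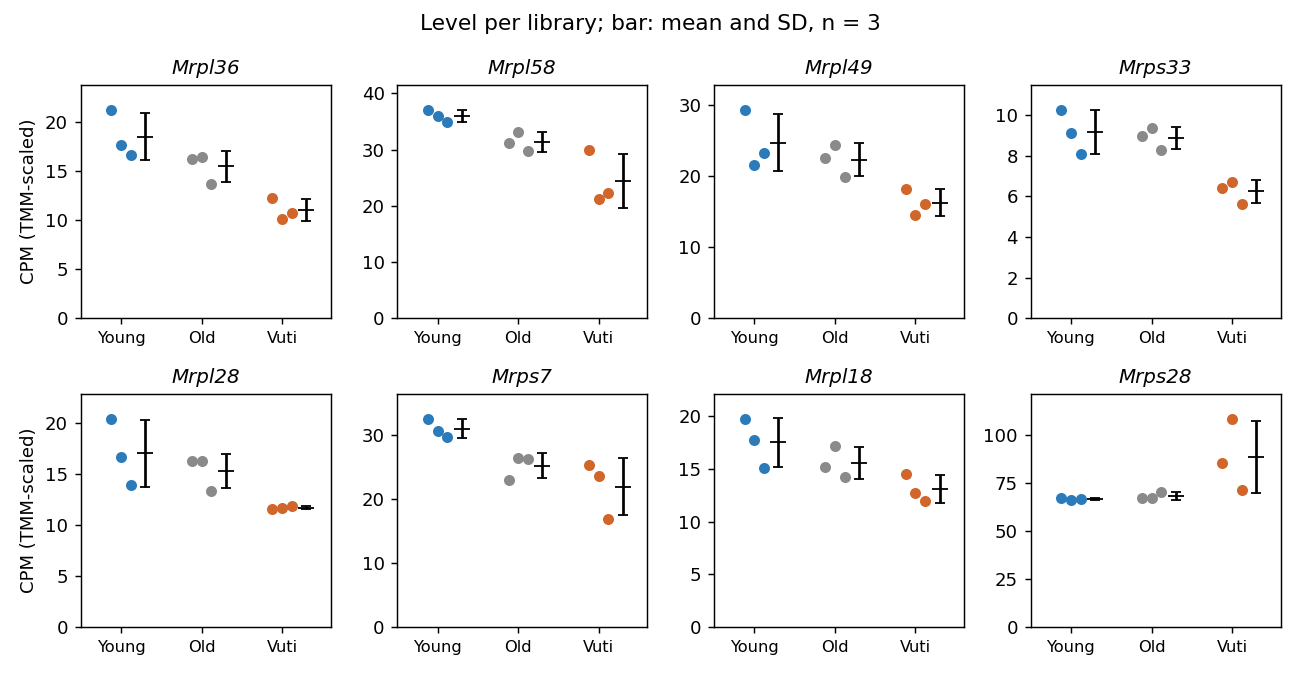
Each panel shows 1 member as CPM (axis from 0) in each of the 9 libraries, with the group mean and SD beside the points (n = 3): the 7 members lower in treated (Vuti) than in young RPE, and Mrps28, which went the other way. Treated points lie below every young point for the 7, and overlap old points for Mrpl58, Mrps7 and Mrpl18; for Mrps28 they lie above all others.

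The number of calls changed with single libraries. Without young library 1, the highest of the 9, the members lower in treated than in young RPE numbered 1 (Mrpl36), and the share of all genes called in either direction dropped from 16.7% to 6.99%. They numbered 2 without young library 2, where 6.84% of all genes were called, and 2 without treated library 2, where 10.3% were. With rod markers as a covariate (8.93% of all genes called), or with only the 2 groups in the fit (4.27%), Mrpl36 alone was called. These shares of all genes count both directions, and in the main fit 7.69% were called lower. RPE markers were lower in all 3 treated than in all 3 young libraries, and rod markers were higher in treated libraries 2 and 3 but not in treated library 1. Macrophage and microglia markers summed to 557 to 714 CPM in young and 810 to 1186 CPM in treated libraries, and lymphocyte markers to 7.06 to 9.79 and 12.2 to 12.7 CPM. In old controls these 2 sets summed to 946 to 1055 and 14.5 to 17.8 CPM. Neither set overlapped between young and treated or between young and old libraries. The part of these cell types in the differences was not tested beyond the rod covariate.

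By role, the calls were spread over both subunits. Of all genes 7.69% were called lower in this comparison and 50.6% lay below 0, and the small counts by role are to be read against these shares. Of the 31 large subunit members with a bacterial homologue 3 fell in treated against young RPE and 29 lay below 0, with a median log2 difference of -0.20. Of the 20 large subunit members without one 2 fell and 15 lay below 0, with a median of -0.19. Of the 17 and 9 small subunit members with and without a homologue 1 each fell, and the medians were -0.14 and -0.26. Within the large subunit, 5 of 5 proteins of the L7/L12 stalk and its base and 8 of 8 at the exit of the peptide tunnel lay below 0, and 0 of these were called. Mrpl12, the stalk protein that also binds the mitochondrial RNA polymerase, differed by -0.18 ± 0.19 and Mrpl45, at the tunnel exit, by -0.13 ± 0.13. Of the 8 of the central protuberance 2 fell, Mrpl18 and Mrpl58. The 3 paralogues Mrps18a, Mrps18b and Mrps18c differed by -0.25 ± 0.12, 0.12 ± 0.15 and -0.08 ± 0.19, and Mrps36 by -0.20 ± 0.17, and none of these 4 was called.

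**Figure D3:**
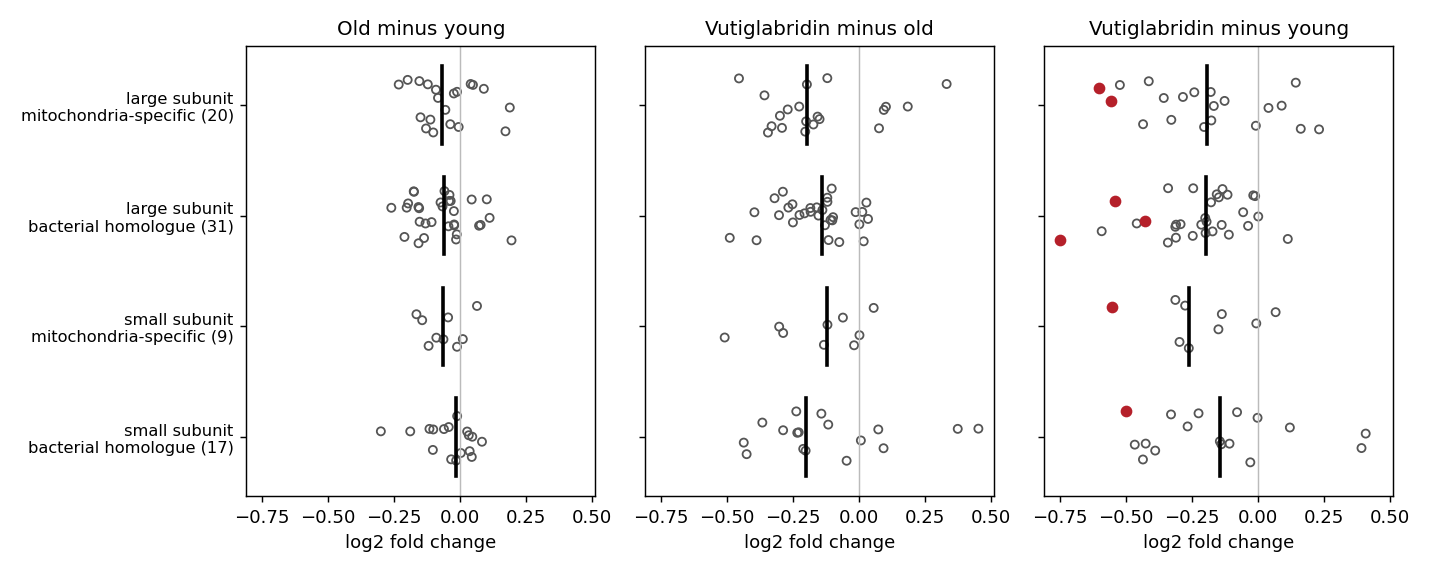
Log2 fold changes of the ribosomal members (points, Mrps36 left out) by role on the vertical axis, in 1 panel per comparison on shared axes, with the median of each role as a bar and called members filled in red. In the comparison of treated with young RPE 11 points lie above 0 and the 7 red points are spread over all 4 roles.

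Against young RPE 11 members lay above 0, and the 3 with the largest differences, Mrps28, Mrps6 and Mrpl48, have spans over 50 kb. The other 8 lay at 0.16 or less and include genes of 2842 to 70796 bp. Mrps28, a small subunit protein with a span of 121712 bp on chromosome 3, stood at 66.96, 66.2 and 66.6 CPM in young, 67.1, 67.1 and 70.4 in old, and 85.6, 108 and 71.2 in treated libraries. All treated values lay above all others. Its log2 difference was 0.37 ± 0.13 from old (adjusted p = 0.112) and 0.41 ± 0.13 from young (adjusted p = 0.0539), and neither passed the threshold in the main fit. Other processing did call it higher than in young RPE. DESeq2 (adjusted p = 0.0247), limma-voom (0.0285), relative log expression or upper quartile size factors and the filter of 1 CPM did so. Against old RPE limma-voom called it (adjusted p = 0.0361) and DESeq2 did not (0.0566). The value also depended on which treated library was left out. Without treated library 3 the differences were 0.51 and 0.55 (adjusted p = 0.0072 and 0.00352), and without treated library 2 they were 0.20 and 0.24 (adjusted p = 0.259 and 0.113). Mrpl48, with a span of 62523 bp, stood at 46.6, 60.0 and 37.3 CPM in treated RPE against 37.6 to 38.5 in old, and these groups overlapped. Its difference from old RPE was 0.33 ± 0.14 (adjusted p = 0.186), 0.49 without treated library 3 (adjusted p = 0.0137) and 0.14 without treated library 2 (adjusted p = 0.492). The span of Mrpl48 shares 731 bp with Rab6a, which had 3589, 5192 and 3731 counts in treated libraries 1, 2 and 3. The span of Mrps28 encloses Gm52601 and Gm52600, with 1427 and 458 summed counts against 33052 for Mrps28.

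Mrps6, the most counted member, stood at 234, 185 and 201 CPM in young, 204, 202 and 189 in old, and 355, 310 and 148 in treated libraries. Treated library 3 was the lowest of the 9 and treated libraries 1 and 2 the highest, so the groups overlapped, and the log2 difference from old was 0.45 ± 0.26 (adjusted p = 0.316). Without treated library 3 it was 0.75 (adjusted p = 0.00235), without treated library 2 it was 0.35 (adjusted p = 0.577), and without treated library 1 it was 0.21 (adjusted p = 0.662). Its span encloses Slc5a3, a myo-inositol transporter on the same strand, whose counts equalled 76.6% to 82.2% of the Mrps6 counts. Where reads count for both genes, most of the Mrps6 counts lie in the shared stretch. Mrpl33 lies wholly inside Gm38424 on the same strand, and its log2 differences of 0.08 ± 0.10, 0.03 ± 0.10 and 0.11 ± 0.10 were not called. In all, 27 members overlap another gene and 51 do not; among the 51, the comparison of treated with young RPE called 4, Mrpl36, Mrpl58, Mrps33 and Mrpl28.

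The difference followed the gene span. In treated against old RPE the median log2 difference was -0.27 for the 6 members under 2 kb, -0.20 for the 48 of 2 to 10 kb, -0.13 for the 18 of 10 to 50 kb and 0.20 for the 6 over 50 kb. Over all genes of the same spans the medians were -0.07, -0.10, -0.02 and 0.09. The median of the 6 long members ran from 0.08 (without treated library 2) to 0.30 (without treated library 3) in fits without 1 library. Against young RPE the member medians were -0.38, -0.22, -0.14 and 0.15, and those of all genes -0.07, -0.09, -0.01 and 0.08. Here the median of the 6 long members ran from 0.05 to 0.26, without the same libraries. Spearman's rho between log2 difference and log10 span over the 78 members, which share their libraries, was 0.37 in treated against old and 0.48 in treated against young RPE. Over all genes it was 0.15 and 0.12. Over the 51 members that overlap no gene it was 0.20 and 0.35. In old against young RPE rho was 0.28 over the members, 0.30 over those 51 and -0.002 over all genes. In that comparison the 39 members under the median span had a median log2 difference of -0.073 and the 39 over it -0.035. Without young library 1 these medians were 0.020 and 0.024, so this difference between short and long members depended on that library. Members of 20% or more exonic span had a median of -0.24 and those under 20% of -0.13 against young RPE, so the 2 sets pointed the same way. The table does not separate exon from intron reads.

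**Figure D4:**
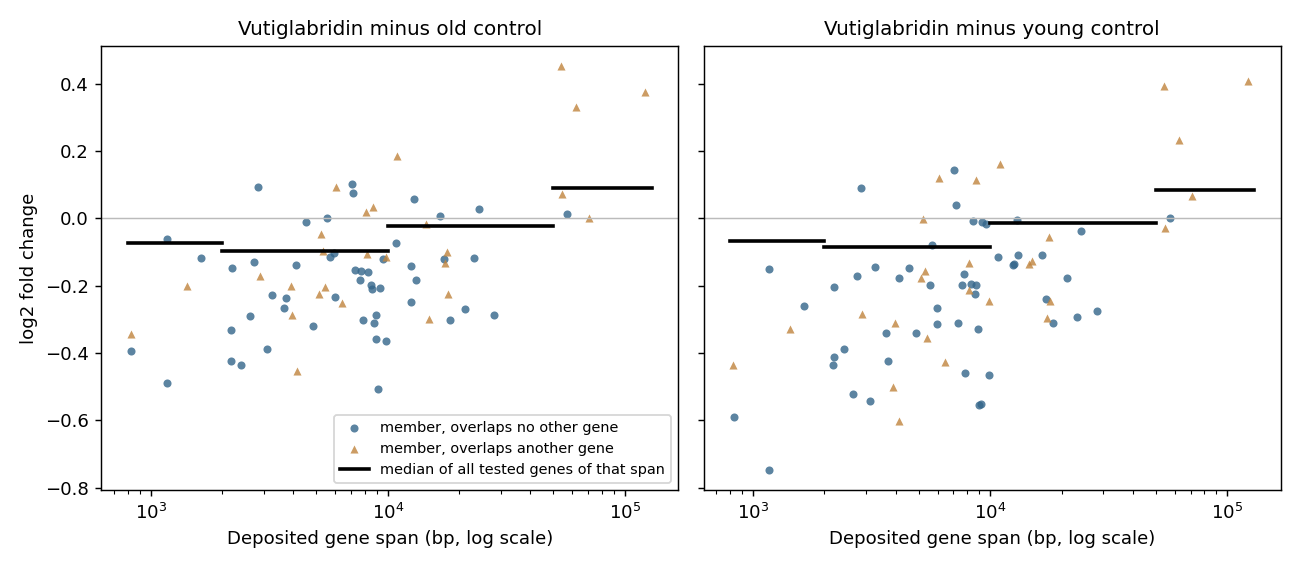
Log2 fold change (vertical axis) against deposited gene span in bp (log axis) for the 78 members, in 1 panel for each of both treated comparisons; triangles overlap another gene, circles do not, and bars are medians of all tested genes in 4 ranges of span. Most members under 50 kb lie below the bars, and the 3 highest points in each panel are the long genes Mrps6, Mrps28 and Mrpl48.

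Other genes of mitochondrial translation were read from lists beside the members. All 5 mitoribosome proteins with other symbols lay below 0 in treated against young RPE, with a median of -0.23, and 0 were called. In this comparison 7.69% of all genes were called lower and 9.01% higher, shares against which these small list counts are to be read. Of 26 genes of mitoribosome assembly and rRNA modification 5 fell and 1 rose. Mtg2, a GTPase of large subunit assembly, stood at 14.8, 12.9 and 12.6 CPM in young, 13.5, 13.4 and 13.03 in old, and 9.12, 7.87 and 9.16 in treated libraries. The treated libraries lay below all others, and Mtg2 fell against both young (-0.62 ± 0.11, adjusted p = 0.00743) and old RPE (-0.61 ± 0.11, adjusted p = 0.0236). Malsu1, a factor that keeps the subunits apart until the large one is mature, went the opposite way, at 43.3, 39.5 and 42.3 CPM in young, 38.1, 37.2 and 38.3 in old, and 53.7, 52.6 and 54.1 in treated libraries. It rose by 0.36 ± 0.07 against young (adjusted p = 0.0122, and 0.0544 without young library 2) and by 0.50 ± 0.07 against old RPE (adjusted p = 0.0137). The calls of both against old RPE were lost without any 1 of the old controls, with adjusted p-values up to 0.123 for Mtg2 and 0.103 for Malsu1.

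Ybey, an endoribonuclease of mitochondrial rRNA, fell by 0.91 on the log2 scale against young RPE (SE 0.18, adjusted p = 0.0115), and Gtpbp10, another GTPase of large subunit assembly, by 0.41 (SE 0.11, adjusted p = 0.0337). Against young RPE 7.69% of all genes were called lower and 9.01% higher. Of 16 translation factors 3 fell. Guf1, an elongation factor of the LepA family, did so by 0.56 (adjusted p = 0.00895), the RNA-binding protein Slirp by 0.47 (adjusted p = 0.0300) and the release factor Mtrf1 by 0.34 (adjusted p = 0.0384). Gatc, a subunit of the mitochondrial glutamyl-tRNA amidotransferase, rose by 0.34 ± 0.10 against young RPE (adjusted p = 0.0385). Of 17 genes of mitochondrial DNA, transcription and RNA processing 1, Mgme1, fell, and its call was lost without any 1 library. Of 9 regulators of mitochondrial biogenesis 2 rose, Pprc1 by 1.10 ± 0.21 and Myc by 2.55 ± 0.54, and Ppargc1a, the coactivator PGC-1alpha, differed by 0.02 ± 0.09 (adjusted p = 0.891). In the 9 fits without 1 library, the calls against young RPE held in all 9 for Mtg2, Ybey, Guf1 and Pprc1, in 8 for Myc, 3 for Slirp, 2 for Gtpbp10, and 1 each for Mtrf1 and Gatc.

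Of the 13 mRNAs that the mitochondrial ribosome translates, 5 rose in treated against young RPE, 0 fell and 12 lay above 0, with a median log2 difference of 0.43. Of all genes 9.01% were called higher and 7.69% lower. Only 3 of the 13 overlap no other gene, and among those 3 the median was 0.24 and 0 were called. Young library 1 stood apart for the 13 mRNAs, at a median deviation of -0.53. Without it the median was 0.27 and 3 rose; without young library 2 the median was 0.56, the highest of the 9 fits without 1 library. ND6 stood at 18.7, 21.1 and 22.4 CPM in young, 22.3, 17.7 and 20.3 in old, and 31.0, 31.3 and 33.6 in treated libraries. The treated values lay above all others, and ND6 rose by 0.62 ± 0.11 against young (adjusted p = 0.00722) and by 0.67 ± 0.11 against old RPE (adjusted p = 0.0188). The call against old RPE was lost without any 1 old control, with adjusted p-values up to 0.109, and the number risen against young RPE ran from 2 to 5 over the fits without 1 library. The 2 mitochondrial rRNAs, which the library kit is designed to deplete, were not called, with log2 differences from young of 0.62 ± 0.48 for mt-Rnr1 and 0.55 ± 0.33 for mt-Rnr2. Their median of 0.59 was 0.19 without young library 1, whose median deviation was -1.75, and 0.87 without young library 2.

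Set beside these, the 80 cytosolic ribosomal protein genes had a median log2 difference of -0.01 in treated against young RPE, with 0 called and 40 of 80 below 0. The 41 Nduf genes had a median of -0.32, with 6 lower, 0 higher and 40 below 0. Of all genes 7.69% were called lower and 9.01% higher. In treated against old RPE the medians were -0.02 for the cytosolic set, -0.24 for Nduf and -0.16 for the members. In both medians the members lay nearer the Nduf genes; the difference between the sets was not tested.

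**Figure D5:**
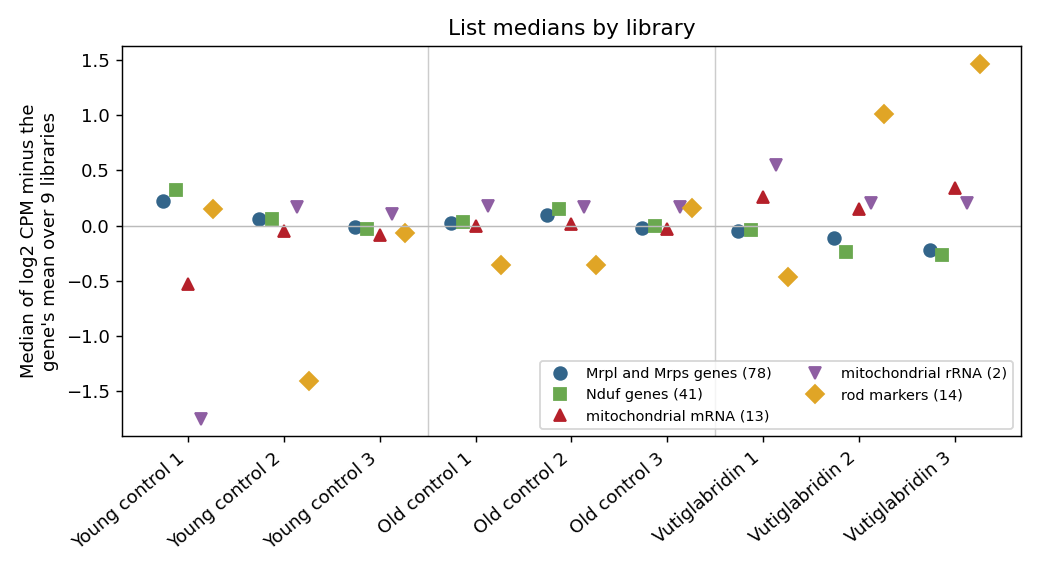
Median log2 deviation from each gene's mean over 9 libraries (vertical axis), by library, for the members, the Nduf genes, the mitochondrial mRNAs and rRNAs, and the rod markers, set side by side within a library. Members and Nduf genes are both highest in young library 1, at 0.22 and 0.32, and lowest in treated library 3, at -0.22 and -0.27; mitochondrial rRNA is at -1.75 in young library 1 and rod markers range from -1.41 to 1.47.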

How the data were processed

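RNA of 9 RPE libraries was extracted with TRIzol and prepared with a stranded total RNA kit, per the labels' protocols. Bowtie2 2.3.4.1, featureCounts 1.6.0 and DESeq2 are named in the submitters' processing notes, with GRCm38, while the deposited chromosome versions are those of GRCm39; no coordinate was converted. The deposited table holds raw counts and FPKM per gene, per the file headers. In the deposited FPKM the count is divided by the whole gene span and the library's total; it was used for levels only; the deposited biotype column was not used. Chromosomes were read from the deposited accessions and matched RefSeq for 78 of 78 members.

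Counts were filtered with filterByExpr, scaled by TMM and fitted for all 9 libraries together with the robust quasi-likelihood test of edgeR 4.0.16 in R 4.3.3. Each standard error is the size of the log2 difference over the square root of F. CPM uses TMM-scaled library sizes. DESeq2 1.42.0, limma-voom (limma 3.58.1), other size factors and filters, a replicate block, a rod covariate, and each library left out were alternatives. The script was tested on simulated data. The precision of a value is limited by counting error and by 3 libraries per group. The members, the lists and the rule for named genes were chosen with earlier results of these data known. Named genes were the called members, those with the smallest p and the largest changes per comparison, the highest and lowest by FPKM, fixed role examples and up to 4 called genes of each other list. Genes of overlapping spans and Mif4gd were named after their values were seen. A result for a gene of the tRNA synthetase list is not reported here.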

Additional observations from a re-analysis of the deposited data

How the results depend on the processing

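Old against young RPE gave 0 member calls under every alternative, and its median log2 difference ran from -0.10 to 0.02 over the fits without 1 library. Treated against old RPE, with 0 calls, gave 2 with total counts, 3 with DESeq2, 2 with limma-voom, 1 without young library 1 and treated library 2, 3 at an adjusted p under 0.1, and 0 to 3 without 1 library, with medians of -0.21 to -0.10. All of these calls were lower except 1 of the 2 of limma-voom and all 3 without treated library 3 (Mrpl48, Mrps28 and Mrps6), where 15.9% of all genes were called; DESeq2 called 12.3% of all genes and edgeR on all 9 libraries 4.34%. Treated against young RPE, with 7 calls, gave 12 with DESeq2, 4 with limma-voom, 1 with only the 2 groups, 1 with the rod covariate, 1 without young library 1 and treated library 2, 4 among genes overlapping no other, 15 at an adjusted p under 0.1, and 1 to 10 without 1 library, with medians of -0.27 to -0.14. Among these calls against young RPE, Mrps28 was higher with DESeq2, with limma-voom and at an adjusted p under 0.1. Without treated library 3, 3 were higher (Mrpl48, Mrps28 and Mrps6) and 7 lower. All the others were lower. Total counts gave 10 calls and no filter 6, all lower. Upper quartile size factors and the filter of 1 CPM gave 8 each, and relative log expression size factors 7. In each of these 3 fits Mrps28 was higher and the rest were lower. The main fit called 16.7% of all genes in this comparison. That share changed with the fit as well, so the counts are not a result about the members alone. A fit without young library 1 and treated library 3, the libraries with the highest and lowest member medians, was chosen after seeing the data. It gave 7 calls against old RPE (4 lower and 3 higher, where 20.1% of all genes were called) and 5 against young (2 lower and 3 higher), whose median moved to -0.083. The causes were not tested.

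For the 28 named members, 1703 values under an alternative kept direction and side of the threshold, 40 passed it newly, 57 no longer passed it, 12 moved by more than the spread, and 0 reversed. Deviations of samples with the same replicate number correlated at -0.079 to 0.148 over 9 pairs. Over the 18 pairs with different numbers the correlations were -0.298 to 0.251. Correlations over all genes would miss a pairing that shows in few genes, so they do not settle whether the numbers pair the samples. With the replicate number as a block the calls were 0, 0 and 7, the same 7 members, and the medians -0.04, -0.16 and -0.20. Depth did not leave any member at 0.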

Other observations

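Lars2, the mitochondrial leucyl-tRNA synthetase, was picked after its values were seen. It stood at 375, 39.6 and 67.9 CPM in young, 41.4, 47.5 and 45.2 in old, and 304, 44.1 and 41.8 in treated libraries. Young library 1 and treated library 1 stood far above the other 7, and no comparison called it.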
